A study of Mus musculus with 52 samples.

Results

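The genes described here encode proteins of the mitochondrial ribosome, the machine inside mitochondria that translates the few proteins encoded by mitochondrial DNA. They were taken as the rows of the deposited table whose symbol is Mrps or Mrpl followed by a number and at most 1 letter. There were 77 such genes of 14626 in the table, 29 with Mrps symbols (small subunit) and 48 with Mrpl symbols (large subunit). A few symbols do not match the place of the protein: the products of Mrps18a and Mrps30 sit in the large subunit, and that of Mrps36 is known as a subunit of the alpha-ketoglutarate dehydrogenase complex.

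The RNA came from CD8+ T cells of OT-I mice, whose T cell receptor recognises a peptide of ovalbumin, and was measured by bulk MARS-seq, which counts the 3′ ends of transcripts. Cells were taken from spleen and grown in wells that were coated with the chemokine CCL21 and the adhesion molecule ICAM1, or left uncoated. Bead-activated cells had received beads with antibodies against CD3 and CD28 together with interleukin 2, and gave 5 coated and 3 uncoated libraries at day 3, with 4 coated and 5 uncoated at day 7. DC-activated cells had met peptide-loaded dendritic cells (DCs), CD11c-selected from spleens of C57BL/6 mice, and gave 9 coated and 7 uncoated libraries at day 3, with 5 of each kind at day 4. Day 0 cells (9 libraries) were freshly isolated and untreated. All T cells, also at day 0, carried the OT-I receptor. The M number in each title served as the replicate. The titles of DC libraries also hold 30 or 120, and neither number is explained. No label ties an M number to an animal of its own, so the tests weigh differences against a spread between samples that may be technical. M numbers 1 to 5 supplied DC day 3 and the bead samples, and M numbers 6 to 10 supplied DC day 4, so that the set of M numbers and the day of DC culture cannot be told apart. Counts of DC day 3 libraries with the same M number and coating were added together, which left 5 coated and 4 uncoated samples.

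The mitochondrial ribosome is built from RNA of the mitochondrial genome and proteins of the nuclear genome, which are made in the cytosol and imported. Its products are core subunits of the respiratory chain and of ATP synthase. Naive T cells hold few and small mitochondria, and activated T cells enlarge them as they grow and divide.

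Promoters are shown for 4 of these genes that had a promoter window and whose levels at DC day 4 are given below. Mrpl51, Mrps25 and Mrpl16 are among the genes with the largest coated over uncoated change there, and Mrpl9, chosen after its values were seen, moved the other way. Each window of RefSeq (GRCm38.p6) runs from 250 bases before to 50 bases after an annotated start and is written 5′ to 3′ on the strand of the gene. Capitals mark the motifs found in a search for the letters GCGCNTGCG (NRF1), CCGGAAGT (ETS factors such as GABP), AAGATGGCG (YY1), CACGTG (the E-box, bound by MYC) and CCAAT on both strands. The Mrpl51 window lies on chr6:125191950-125192249, plus strand, with 1 ETS match. That of Mrps25 lies on chr6:92183974-92184273, minus strand, with CCAAT on the other strand. That of Mrpl16 lies on chr19:11770165-11770464, plus strand, and holds none of these letters. That of Mrpl9 lies on chr3:94443086-94443385, plus strand, with 1 stretch that holds the NRF1 letters on both strands, overlapping; its start is 182 bases from the outermost annotated start of the gene.
Mrpl51: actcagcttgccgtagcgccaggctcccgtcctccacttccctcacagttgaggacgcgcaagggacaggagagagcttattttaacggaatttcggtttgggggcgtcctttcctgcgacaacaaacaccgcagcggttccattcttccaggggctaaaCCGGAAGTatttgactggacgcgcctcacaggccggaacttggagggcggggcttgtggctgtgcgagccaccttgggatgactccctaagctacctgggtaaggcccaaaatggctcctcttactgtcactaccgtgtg
Mrps25: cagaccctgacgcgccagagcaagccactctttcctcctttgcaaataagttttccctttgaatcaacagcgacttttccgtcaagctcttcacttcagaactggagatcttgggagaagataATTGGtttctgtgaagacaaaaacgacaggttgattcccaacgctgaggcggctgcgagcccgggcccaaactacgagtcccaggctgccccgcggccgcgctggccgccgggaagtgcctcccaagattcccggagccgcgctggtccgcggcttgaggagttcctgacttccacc
Mrpl16: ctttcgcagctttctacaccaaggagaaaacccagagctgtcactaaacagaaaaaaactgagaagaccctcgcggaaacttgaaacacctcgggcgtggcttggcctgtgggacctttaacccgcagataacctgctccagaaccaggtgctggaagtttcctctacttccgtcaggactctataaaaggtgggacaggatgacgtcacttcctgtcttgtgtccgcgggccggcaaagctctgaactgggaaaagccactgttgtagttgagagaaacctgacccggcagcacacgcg
Mrpl9: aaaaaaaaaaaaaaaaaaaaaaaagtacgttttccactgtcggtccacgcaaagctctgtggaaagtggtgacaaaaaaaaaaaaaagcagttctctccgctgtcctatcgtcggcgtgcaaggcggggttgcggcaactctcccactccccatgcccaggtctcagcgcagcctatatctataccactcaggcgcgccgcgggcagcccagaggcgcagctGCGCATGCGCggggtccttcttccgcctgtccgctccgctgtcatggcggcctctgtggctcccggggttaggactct

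A window was given for 68 of the 77 genes (74 windows), among which 24.3% held the NRF1 letters, against 6.31% of all 32851 windows of the RefSeq table. The ETS letters stood in 16.2% of the windows of these genes and 3.89% of all windows. The YY1 letters stood in 10.8% and 1.40%. E-box letters (9.46% and 7.15%) and CCAAT (39.2% and 37.4%) were close in both sets. Set against windows of genes that are in the counts table, the shares were nearer: 13.0% held NRF1, 8.06% ETS and 2.99% YY1 letters. The NRF1 and YY1 letters were shortened after the shares with longer letters had been seen, so their shares are descriptions and no test. A match is a description of letters, not a binding site.

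Libraries held 382924 to 4641802 counts, and the 77 genes took 0.319% to 1.08% of the counts of a sample. Levels are given as CPM, counts divided by the library size after TMM scaling over all 45 samples; counts of 3′ ends do not scale with transcript length. Mrpl18 was the most abundant (mean 302 CPM over all samples), before Mrpl30 (250 CPM) and Mrpl12 (242 CPM), which encodes a protein of the stalk that recruits translation factors. The lowest were Mrps18b (2.88 CPM), Mrps30 (2.09 CPM) and Mrpl50 (1.24 CPM). Of the 77 genes, 68 passed the filter on low counts in all 17 comparisons, 8 in some, and Mrpl50 in none. The pseudogenes Mrpl23-ps1, Mrpl27-ps, Mrpl48-ps and Mrps36-ps1 are rows of their own, so reads of Mrpl23, Mrpl27, Mrpl48 and Mrps36 could have been split with them, and these 4 genes are uncertain.

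Summed over the 77 genes, the level was lowest at day 0 and highest in DC-activated cells at day 3. Day 0 samples ran from 3460 to 4770 CPM (median 4092 CPM). Bead-activated cells at day 3 had 8062 to 9900 CPM on the coating and 8147 to 9012 CPM without it. At bead day 7 they had 7853 to 8329 CPM coated and 6537 to 7467 CPM uncoated. DC-activated cells had 9389 to 10846 CPM coated and 8983 to 10539 CPM uncoated at day 3. At DC day 4 the sums were 6797 to 8868 CPM coated and 5647 to 6853 CPM uncoated. Every activated sample lay above every day 0 sample. Coated and uncoated samples did not overlap at bead day 7 and overlapped in the other 3 settings. In the order of group means, DC day 3 coated (10254 ± 602 CPM, SD, n = 5) stood above DC day 3 uncoated (9886 ± 666 CPM, n = 4), a step smaller than either SD. By single genes, 38 of the 77 had their highest group mean at DC day 3 coated and 13 at DC day 3 uncoated, and 59 had their lowest at day 0. The same counts were not made over all genes. The Mrps to Mrpl ratio of the sums stayed narrow, with group means from 0.426 at bead day 7 uncoated to 0.484 at DC day 3 coated.

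**Figure D1:**
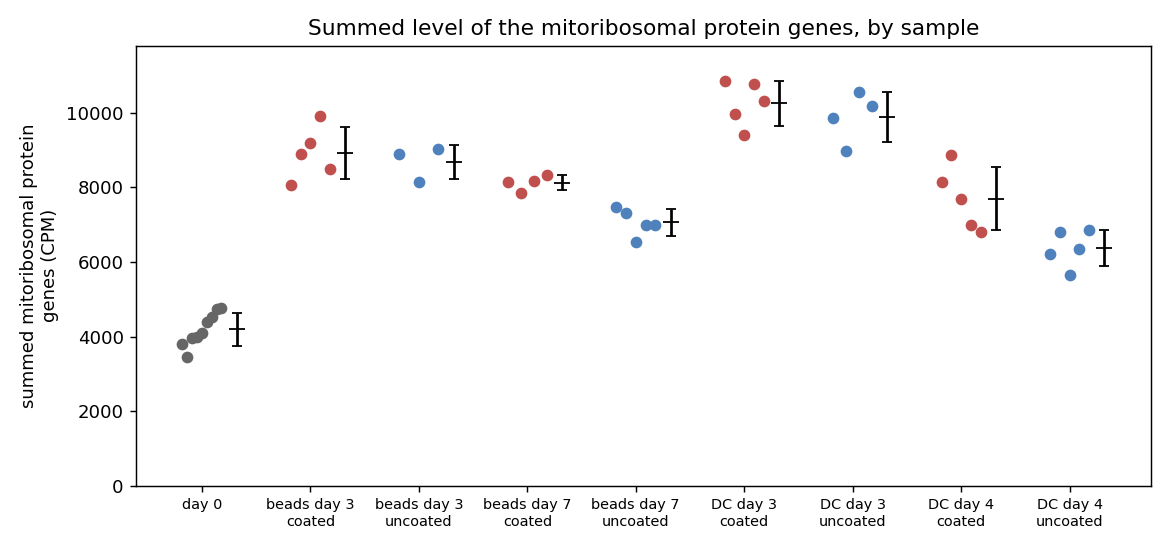
Summed level of the 77 mitoribosomal protein genes in each sample, in CPM, with the mean and SD of each group beside the points (coated red, uncoated blue, day 0 grey). Day 0 samples sit between 3460 and 4770 CPM, below all activated samples, and DC day 3 samples between 8983 and 10846 CPM.

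After activation by DCs without the coating, nearly all of these genes were higher at day 3 than at day 0. Of 71 tested, 67 rose and 0 fell, against 37 percent of all 9259 genes tested that rose and 38.1 percent that fell, with an adjusted p under 0.05 (edgeR quasi-likelihood test). Their median log2 fold change was 1.28, beside -0.036 over all genes. All 25 tested Mrps genes rose (median 1.36), as did 42 of 46 Mrpl genes (median 1.25).

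Mrps6, a small subunit gene with a bacterial counterpart, showed the largest rise. It had 219, 230, 246 and 229 CPM in the uncoated DC day 3 samples (M numbers 1, 3, 4 and 5), against 13.9 to 30.2 CPM (median 24.2 CPM) at day 0. The groups were far apart, with a log2 fold change of 3.29 ± 0.15 (SE, adjusted p = 2.31e-12, edgeR). Mrps22, specific to the mitochondrial ribosome, had 93.4, 78.1, 99.7 and 92.3 CPM at DC day 3 and 8.52 to 23.3 CPM (median 16.5 CPM) at day 0 (log2 2.38 ± 0.17). Both sets of values were again without overlap, which held for 55.7 percent of all genes tested. Mrpl18 had 473, 426, 474 and 431 CPM at DC day 3 and 68.5 to 114 CPM (median 84.4 CPM) at day 0 (log2 2.32 ± 0.12). The other genes with the largest changes were Mrps25 (2.37), Mrpl20 (2.26), Mrpl51 (2.15), Mrpl12 (2.10) and Mrpl22 (2.07), all with log2 changes past the test.

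The same direction was seen with beads and at the later times, each set against the same day 0 samples. At bead day 3, 56 of 69 tested genes rose and 1 fell (30.2 percent and 35 percent of all genes; median log2 0.99, all genes -0.119). Mrpl51 (log2 2.19 ± 0.19, adjusted p = 2.87e-08) and Mrpl18 (2.17 ± 0.14, adjusted p = 8.56e-10, edgeR) led, with 176 to 180 CPM against 23.9 to 49.9 CPM for Mrpl51. Mrpl39, Mrps25, Mrpl12, Mrpl28, Mrps6 and Mrps22 followed, with log2 changes of 1.89 to 1.75. The gene that fell was Mrpl24, with 56.9 to 89.3 CPM at bead day 3 and 66.5 to 141 CPM at day 0 (log2 -0.57 ± 0.22, adjusted p = 0.035, edgeR). These ranges overlapped, and in 7 of 9 alternatives the call was lost, among them the fits without bead day 3 M number 2 or 4 (adjusted p over the alternatives from 0.0206 to 0.456, edgeR or DESeq2). At bead day 7, 53 of 70 rose and 1, Mrpl23, fell (30.5 percent and 31 percent of all genes; median log2 0.67, all genes -0.019), with Mrpl51 (1.64), Mrps25 (1.55), Mrpl39 (1.51), Mrpl18 (1.43), Mrpl34 (1.37), Mrpl20 (1.27), Mrpl44 (1.24) and Mrps15 (1.23) on top. Mrpl23, 1 of the uncertain genes, had a log2 change of -0.78 ± 0.29 (adjusted p = 0.0265, edgeR), a call lost in 6 of 11 alternatives, among them the fits without bead day 7 uncoated M number 1, 3 or 5 (adjusted p over the alternatives from 0.00516 to 0.325, edgeR or DESeq2).

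At DC day 4 without the coating, 53 of 70 genes were higher than at day 0 and 2 were lower (26.4 percent and 29.2 percent of all genes; median log2 0.61, all genes -0.033). Mrps6 again led (log2 1.70 ± 0.18), before Mrpl45 (1.45), which anchors the ribosome to the inner membrane, Mrpl9 (1.40), Mrps35 (1.20), Mrpl27 (1.17), Mrpl18 (1.17), Mrps21 (1.14) and Mrpl39 (1.12). Mrps28 was lower, with 38.1, 53.5, 43.6, 41.7 and 48.3 CPM at DC day 4 (M numbers 6 to 10), against 58.8 to 79.1 CPM (median 71.6 CPM) at day 0. No DC day 4 sample reached the day 0 range (log2 -0.69 ± 0.12, adjusted p = 5.64e-05, edgeR). These groups did not overlap in 30.5 percent of all genes tested. Mrpl38 was lower too (log2 -0.66 ± 0.15, adjusted p = 0.00073, edgeR). With day 0 limited to M numbers 6 to 10, 44 rose and 3 fell. The shares of all genes given above belong to the fit with all day 0 samples.

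Day 0 samples differed from all others in more than activation. Their summed erythroid markers reached 25609 to 135634 CPM, against at most 1176 CPM in any activated sample, and their B cell markers 3873 to 7971 CPM against at most 2573 CPM. Markers of DCs and MHC class II summed to 10790 to 20181 CPM at day 0 and at most 1437 CPM after activation, and in each of the 4 comparisons 7 of 7 tested B cell, 7 of 7 DC, 7 of 7 myeloid and 6 of 6 erythroid markers fell. In every uncoated DC day 3 library S100a8, S100a9 and Cd4 were at 0. Markers of CD8 T cells moved too: at DC day 3, 1 of 12 rose and 9 fell, with sums of 7703 to 9628 CPM against 11074 to 15984 CPM at day 0. The part of these transcripts in the differences from day 0 was not tested; in bulk RNA, fewer cells of a type and less RNA per cell cannot be told apart. Within day 0 the summed level was 3460 to 4092 CPM in M numbers 1 to 5 and 4382 to 4770 CPM in M numbers 6 to 10. Scaling by library totals in place of TMM moved the median log2 change of all genes to between 0.13 and 0.18 in these 4 comparisons; the genes described here still rose above that median, with medians of 0.78 to 1.48.

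**Figure D2:**
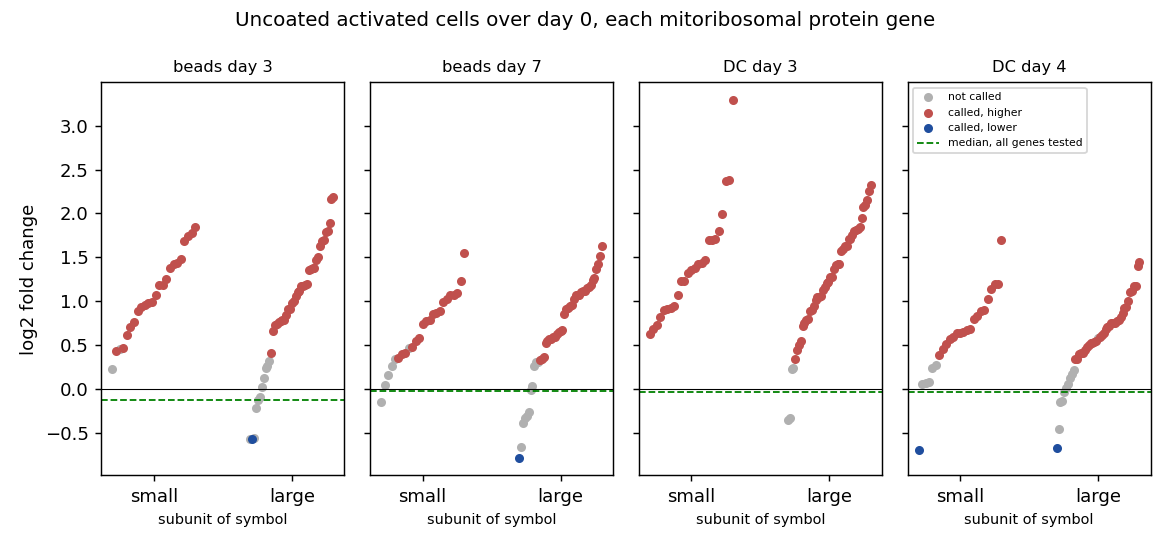
Log2 fold change of each tested mitoribosomal protein gene, uncoated activated cells over day 0, ordered within Mrps (small) and Mrpl (large) symbols; red and blue are genes with an adjusted p under 0.05, grey the rest, the dashed line the median of all genes tested. At DC day 3, 67 of 71 genes are red, and none is blue.

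Genes that act with the mitochondrial ribosome were counted beside its own proteins. Among all genes tested at DC day 3 uncoated over day 0, 37 percent rose and 38.1 percent fell. Whether the lists below differ from all genes was not tested. At DC day 3 uncoated over day 0, 8 of 11 translation factors rose and 0 fell, among them Tufm, the elongation factor (185 ± 26.3 CPM, n = 4, against 51.7 ± 9.89 CPM, n = 9, log2 1.83), and its exchange factor Tsfm (log2 2.25). Of 22 assembly and rRNA processing genes, 15 rose and 1 fell, with C1qbp at log2 2.02 and the GTPase Noa1 at 1.46. Other subunits of this ribosome with unrelated symbols rose in 4 of 4 cases, including Dap3 (0.88) and Chchd1 (2.02). Mitochondrial aminoacyl-tRNA synthetases rose in 7 of 13 cases and fell in 0 (Yars2 1.86, Rars2 1.85). Genes of mitochondrial DNA maintenance and transcription rose in 7 and fell in 2 of 11, with the nuclease Mgme1 at 1.74 and Lrpprc, which stabilises mitochondrial mRNA, at 1.53. Polrmt, the mitochondrial RNA polymerase, rose (log2 1.20 ± 0.22, adjusted p = 9.87e-05, edgeR), while Tfam, which packages mitochondrial DNA, had log2 0.15 ± 0.17 (adjusted p = 0.429, edgeR). Of 8 regulators of mitochondrial biogenesis, 5 rose and 1 fell, with Pprc1 at 1.55 and Myc at 2.06. Of 5 tested protein genes encoded in mitochondrial DNA, 4 fell and 0 rose, mt-Nd4 by 1.33 and mt-Nd5 by 1.84 on the log2 scale, both with ranges that overlapped those of day 0. Over the DC and bead samples of day 3, mt-Nd4 averaged 66.6 CPM, mt-Nd5 23.4 CPM and mt-Co1 4.22 CPM. Whether counts this low follow the amount of mitochondrial mRNA was not tested.

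From day 3 to day 4 of DC culture the genes were lower again. Without the coating, 3 rose and 55 fell of 72 tested at day 4 over day 3, using the day 3 libraries with 120 in the title as at day 4 (30.8 percent and 30.8 percent of all genes; median log2 -0.70, all genes 0.007). Mrpl38 fell by 1.64 ± 0.13 on the log2 scale (adjusted p = 5.51e-08, edgeR), Mrps28 by 1.53, Mrps22 by 1.42 and Mrps6 by 1.42. Against them, Mrpl24 rose by 0.51, Mrpl9 by 0.39, and Mrpl58, a peptidyl-tRNA hydrolase that frees stalled ribosomes, by 0.45. On the coating, 3 rose and 32 fell of 73 tested (22 percent and 21.9 percent of all genes; median log2 -0.32, all genes 0.010), with Mrpl38 (-1.44), Mrps6 (-1.35), Mrps5 (-1.34) and Mrpl12 (-1.06) lowest and Mrpl58 (0.68), Mrps16 (0.41) and Mrpl27 (0.39) higher. The call on Mrps16 was lost in 7 of 9 fits that left out 1 sample. Myc averaged 73.5 ± 24.3 CPM at day 4 and 379.9 ± 54.2 CPM at day 3 without the coating (SD, n = 5 and 4) and fell by 2.47 on the log2 scale on it. C1qbp fell by 1.56 and 1.21. CD8 T cell markers moved the other way: 10 of 12 rose and 1 fell without the coating, and 8 rose and 1 fell on it. Their sums in uncoated samples were 14264 to 18320 CPM at day 4 and 7703 to 9628 CPM at day 3, and B cell markers (2 of 3 tested rose) summed to 1862 to 2466 CPM and 571 to 667 CPM. Among the B cell markers, Ighm averaged 1530 CPM over the coated and uncoated libraries of both days with 120 in the title. Cd79b averaged 10.7 CPM and Igkc 8.95 CPM there. The part of all these markers in the result was not tested. Because M numbers 6 to 10 supplied day 4 and 1 to 5 day 3, day and M number cannot be told apart here.

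With beads, more of these genes fell than rose from day 3 to day 7. Without the coating, 2 rose and 27 fell of 71 tested at day 7 over day 3 (12.1 percent and 11 percent of all genes; median log2 -0.40, all genes 0.017), led by Mrps5 (-1.03 ± 0.20, adjusted p = 0.00582, edgeR), Mrpl55 (-0.94), Mrps28 (-0.88) and Mrps6 (-0.82). Mrps5 had 80.5, 56.8, 48.3, 47.5 and 49 CPM at day 7 (M numbers 1 to 5) and 96.9, 144 and 105 CPM at day 3 (M numbers 1, 2 and 4). Samples of the 2 days did not overlap, which held for 30.7 percent of all genes tested. Mrps21 (0.58) and Mrpl52 (0.50) rose, calls that were lost in 11 and 8 of 14 alternatives. The count of 29 calls changed with the fit. With M number as a block, which pairs these samples, it was 8 (0 rose and 8 fell). Without bead day 3 uncoated M number 1, 2 or 4 it was 14, 11 and 9. Without bead day 7 uncoated M number 3 or 5 it was 15 each. Shares of all genes called are not given for these fits, nor for the fits below that left out samples. Most tested markers of other cells gave no call in the uncoated change. Erythroid markers (0 of 4 tested called) summed to 7.15 to 821 CPM at day 7 and 21.5 to 63.0 CPM at day 3. The highest sums were in day 7 M numbers 3 and 4 (487 and 821 CPM). DC and MHC class II markers (0 of 5 called) summed to 39.5 to 446 CPM at day 7 and 125 to 192 CPM at day 3. The 1 myeloid marker tested, Fcer1g, rose (sums of 15 to 26 CPM and 1.02 to 4.27 CPM, with S100a8 and S100a9 at 0 at both days), and of 12 CD8 T cell markers 2 rose and 1 fell (7099 to 11881 CPM and 6553 to 7508 CPM). B cell markers (0 of 2 called) summed to 269 to 1289 CPM and 733 to 822 CPM. Without day 7 M numbers 3 and 4, 0 genes rose and 12 fell, with a median log2 change of -0.37. On the coating, 0 rose and 5 fell of 72 (3.67 percent and 2.8 percent of all genes; median log2 -0.18, all genes -0.035), among them Mrps22 (-0.56), Mrps5 (-0.49), Mrpl45 (-0.48) and Mrpl2 (-0.38). That count was 0 without bead day 3 coated M number 2 or 4 or bead day 7 coated M number 1, 2 or 5, and 1 without bead day 3 coated M number 1. Of 3 tested DC markers 2 fell on the coating (sums of 45.7 to 82.7 CPM at day 7 and 88.1 to 109 CPM at day 3), and of 12 CD8 T cell markers 1 fell. The part of any of these markers in the changes from day 3 to day 7 was not tested.

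Set beside bead-activated cells at day 3, more of these genes were higher than lower in DC-activated cells. Without the coating, 17 rose and 1 fell of 72 tested, DCs over beads (11.1 percent and 13.8 percent of all genes; median log2 0.14, all genes 0.003). Mrps6 stood out, with 219 to 246 CPM after DCs against 82.5 to 85.2 CPM after beads (log2 1.42 ± 0.11, adjusted p = 2.97e-07, edgeR). Mrpl13 (1.01), Mrps14 (0.91) and Mrpl22 (0.87) came next, and Mrpl3, a large subunit core protein, was lower (-0.37). The call on Mrpl3 was lost in 6 of 12 alternatives, among them 4 of 7 fits that left out 1 sample (bead M number 1 or 4, DC M number 1 or 5). That count of 18 was 9 without bead day 3 uncoated M number 2 and 11 without M number 4. On the coating, 28 rose and 4 fell of 74 (18.9 percent and 21 percent of all genes; median log2 0.16, all genes 0.020). Mrps6 had 259 to 334 CPM (median 279 CPM, n = 5) after DCs and 56.6 to 84.2 CPM (median 69.6 CPM, n = 5) after beads (log2 2.02 ± 0.12, adjusted p = 8.88e-09, edgeR), again far apart. Mrpl38 (0.94), Mrpl9 (0.66) and Mrpl45 (0.65) were higher too, and Mrps16 (-0.69), Mrpl58 (-0.37), Mrpl27 (-0.27) and Mrpl30 (-0.25) were lower. Of these calls, that on Mrpl58 was lost without bead M number 4 or DC M number 5, and that on Mrpl30 without bead M number 1 or 4 or DC M number 2, 3 or 5. Markers of other cells moved here as well: on the coating, 4 of 4 tested erythroid markers rose (sums of 50.7 to 250 CPM after DCs against 10.1 to 47.2 CPM after beads), 3 of 5 DC markers rose and 1 fell (111 to 279 CPM against 88.1 to 109 CPM), and 2 of 2 B cell markers fell. Their part in the result was not tested. The difference between the coating effects with DCs and with beads at day 3 passed the test for 0 of 75 genes (edgeR; 11 had an unadjusted p under 0.05, and DESeq2 called 2), against 1.03 percent of all genes.

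What the coating does to the cells is the question of the study, and among the 4 settings the most genes were called at DC day 4. There, 22 genes rose and 1 fell of 72 tested, coated over uncoated, against 9.75 percent and 9.23 percent of all 9159 genes. Their median log2 fold change was 0.29 (all genes -0.0028), and 61 of 72 had a positive value. Of 26 tested Mrps genes 8 rose, and of 46 Mrpl genes 14 rose and 1 fell. In 12 genes the 5 coated and 5 uncoated samples did not overlap, against 12.1 percent of all genes.

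Mrpl18 had 339, 379, 344, 271 and 278 CPM in coated samples and 220, 223, 178, 209 and 206 CPM in uncoated samples (M numbers 6 to 10 in each). All coated samples lay above all uncoated ones, and the log2 fold change was 0.61 ± 0.11 (SE, adjusted p = 0.00271, edgeR). Mrpl51, a large subunit protein specific to mitochondria, had 108, 106, 156, 119 and 93.2 CPM in coated samples and 64.5, 66.7, 61.7, 80.5 and 59.3 CPM in uncoated ones. The highest coated value belonged to M number 8, and the groups did not overlap (log2 0.78 ± 0.14, adjusted p = 0.0028, edgeR). Mrpl16 had 81.3, 79.3, 61.4, 66.8 and 66.2 CPM coated and 39.9, 49.6, 38.7, 44.5 and 48.3 CPM uncoated, without overlap (log2 0.67 ± 0.12, adjusted p = 0.0028, edgeR). Mrps25 had 65.9, 75.3, 66.6, 45.5 and 40.5 CPM coated and 36.5, 39.0, 32.9, 34.3 and 36.6 CPM uncoated. Coated M numbers 9 and 10 lay little above the uncoated samples (log2 0.70 ± 0.16, adjusted p = 0.00891, edgeR).

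The other named genes that rose were Mrps28 (log2 0.70), Mrps10 (0.60), Mrps14 (0.59) and Mrpl28 (0.55), and of the genes followed whatever their p, Mrps7 (0.46), Mrps12 (0.45), whose product lies at the decoding centre, Mrps18a (0.35) and Mrpl12 (0.49). Mrps15, singled out after its values were seen, had 177, 217, 204, 185 and 175 CPM coated and 117, 144, 139, 132 and 144 CPM uncoated (log2 0.48). The followed genes without a call were Mrps5 (0.20), Mrps16 (-0.07), Mrps18c (-0.07), Mrps22 (0.46, adjusted p = 0.0579, edgeR), Mrpl3 (0.26), Mrpl10 (0.22), Mrpl11 (0.25), Mrpl44 (0.29), Mrpl45 (0.08) and Mrpl58 (-0.05). Mrps18b did not pass the filter. The authors' deposited table called 21 of the 77 genes higher and 1 lower at DC day 4 with an adjusted p under 0.05. Of these, 20 and 1 were also called here. Over all 14626 genes that table called 1519 in either direction.

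Mrpl9, a large subunit gene with a bacterial counterpart, went the other way. It had 141, 132, 128, 147 and 144 CPM in coated samples and 192, 165, 159, 173 and 209 CPM in uncoated samples. No coated sample reached the lowest uncoated one (log2 -0.40 ± 0.10, adjusted p = 0.0162, edgeR). At DC day 3 the order was turned round: 177, 205, 199, 172 and 175 CPM coated (M numbers 1 to 5) lay above 141, 157, 151 and 138 CPM uncoated (M numbers 1, 3, 4 and 5), though that comparison gave no call. Groups did not overlap there in 3 of 76 mitoribosomal protein genes and in 4.69 percent of all genes tested.

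**Figure D3:**
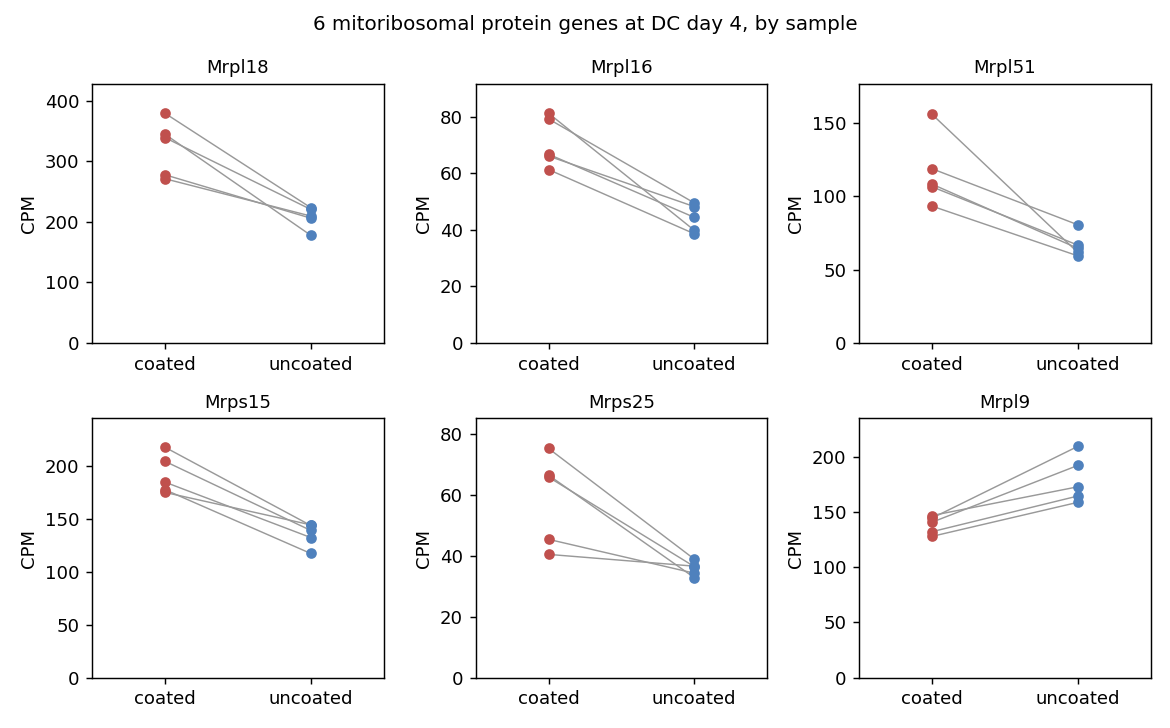
Level of 6 mitoribosomal protein genes at DC day 4 in CPM, coated (red) left and uncoated (blue) right, with lines joining samples of the same M number. Mrpl18, Mrpl16, Mrpl51, Mrps15 and Mrps25 are higher in all coated samples than in all uncoated ones, and Mrpl9 is lower.

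The coating difference at DC day 4 was uneven between M numbers. The summed level was 8139, 8868, 7686, 6988 and 6797 CPM in coated samples and 6213, 6793, 5647, 6340 and 6853 CPM in uncoated samples of M numbers 6 to 10. Coated exceeded uncoated by 1926, 2075 and 2039 CPM in M numbers 6, 7 and 8, by 648 CPM in M number 9, and in M number 10 coated was lower, by a difference of -55.8 CPM. By genes, 72, 68, 60, 52 and 38 of the 77 were higher on the coating in M numbers 6 to 10. Shares of all genes by M number are not given. The number of calls, 23 with all samples, was 6 without coated M number 7, 8 without uncoated M number 6, 13 without coated M number 6, 14 without uncoated M number 9 and 15 without uncoated M number 10. Shares of all genes called in these fits are not given, so the drops cannot be set against those of other genes. Genes called whichever sample was left out were Mrpl16, Mrpl18, Mrpl51, Mrps15 and Mrps25.

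Markers of cell types moved with the coating at DC day 4. Of 12 CD8 T cell markers, 0 rose and 4 fell, among them Cd5 (log2 -0.65) and Trbc1 (-0.53), and their sum was 10236 to 15149 CPM in coated samples and 14264 to 18320 CPM in uncoated ones. DC and MHC class II markers, of which 1 of 5 tested fell, summed to 105 to 319 CPM coated and 169 to 1437 CPM uncoated, the 1437 CPM in M number 8, and Clec9a was at 0 in every coated library. Erythroid markers (0 of 3 tested called) summed to 9.38 to 478 CPM coated and 13.4 to 1176 CPM uncoated, again highest in uncoated M number 8. B cell markers (1 of 2 tested fell) summed to 2048 to 2573 CPM coated, with Cd79a at 0 throughout, and 1862 to 2466 CPM uncoated. Without both samples of M number 8, 18 genes rose and 1 fell. The share of all genes called in that fit is not given here. The part of these markers in the result was not tested.

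Lists of other genes of mitochondrial translation, without the aminoacyl-tRNA synthetases, were counted at DC day 4 on the coating. Among all genes, 9.75 percent rose. Whether these lists differ from the mitoribosomal protein genes was not tested. Translation factors rose in 2 of 12 cases (Tsfm, log2 0.45, and Mtrf1, 0.76) and fell in 0. Assembly genes rose in 1 of 23 (Noa1, 0.42), and mitochondrial DNA maintenance and transcription genes in 2 of 10, with 0 falling in each. The 4 tested subunits with unrelated symbols gave no call. The 2 maintenance and transcription genes that rose were Polrmt, with 19.3 to 32.6 CPM coated and 7.08 to 21.5 CPM uncoated (log2 0.74 ± 0.22, adjusted p = 0.0323, edgeR), and Lrpprc (0.50). Myc (-0.10, adjusted p = 0.811, edgeR) and Tfam (-0.14, adjusted p = 0.644, edgeR) gave no call, nor did any of 8 regulators of biogenesis or 5 genes encoded in mitochondrial DNA, whose median log2 change was -0.69 and positive in 0. The limit on low counts of genes encoded in mitochondrial DNA, given above, holds here too.

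At the other settings few genes or none were called for the coating. At DC day 3, 0 of 76 tested genes were called in either direction (edgeR; 4 had an unadjusted p under 0.05, and DESeq2 called 0), against 0.41 percent of all genes, and the median log2 change was 0.003. At bead day 3, 0 of 72 were called (2 with an unadjusted p under 0.05, and 0 by DESeq2), against 0.1 percent of all genes, with a median of -0.04. At these times the followed genes ran from -0.42 (Mrps18c) to 0.23 (Mrps5) with DCs and from -0.28 (Mrpl3) to 0.97 (Mrps18c, at 11.1 CPM) with beads.

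At bead day 7, 1 gene rose and 0 fell of 69 tested (0.425 percent and 1.41 percent of all genes). It was Mrps28, with 112, 90.2, 110 and 118 CPM in coated samples (M numbers 1, 2, 3 and 5) and 82.6, 67.6, 58.0, 57.2 and 62.2 CPM in uncoated samples (M numbers 1 to 5). The groups did not overlap (log2 0.67 ± 0.13, adjusted p = 0.0346, edgeR), which held for 9.87 percent of all genes tested. The call was lost in 7 of 9 fits that left out 1 sample, and the count then ran from 0 without any 1 coated sample or uncoated M number 3, 4 or 5 to 4 without uncoated M number 2 and 7 without uncoated M number 1. Of all 69 tested genes, 53 had a positive value (49.4 percent of all genes), with a median of 0.23 (all genes -0.005) and followed genes from -0.46 (Mrps18c) to 0.45 (Mrps7). In the 4 M numbers with both samples, 46, 53, 62 and 59 of the 77 genes were higher on the coating, and the summed level was higher by 674, 535, 1627 and 1336 CPM. Shares of all genes by M number are not given here either. The authors' deposited table called 5 of the 77 genes higher and 1 lower here, beside 850 of all 14626 genes in either direction. Of the 5, 1 was also called higher in the present test. Uncoated M numbers 3 and 4, the 2 samples with the highest erythroid marker sums at bead day 7 (487 and 821 CPM), were among the 3 lowest in summed level, with uncoated M number 5 (7.15 CPM of erythroid markers). Without M numbers 3 and 4 of the uncoated group, 0 genes were called and the median was 0.16; of other lists, CD8 T cell markers had 0 calls among 12 (6854 to 8184 CPM coated and 7099 to 11881 CPM uncoated), and the 1 myeloid marker tested fell (sums of 2.83 to 6.28 CPM coated and 15 to 26 CPM uncoated). Their part in the result was not tested.

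**Figure D4:**
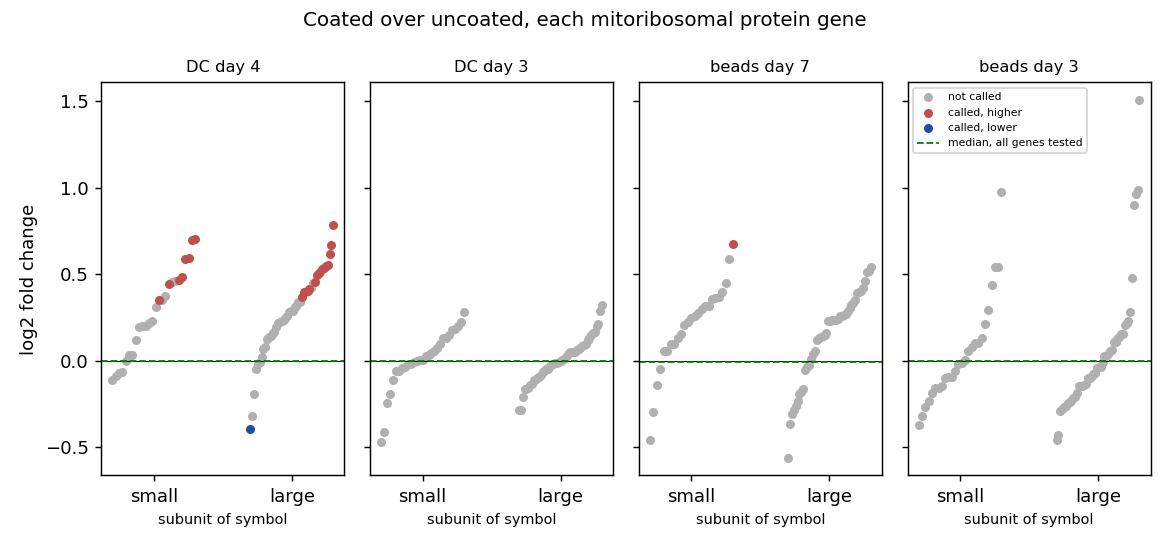
Log2 fold change of each tested mitoribosomal protein gene, coated over uncoated, in the 4 settings, ordered within Mrps (small) and Mrpl (large) symbols; red and blue are genes with an adjusted p under 0.05, grey the rest, the dashed line the median of all genes tested. Red points are 22 at DC day 4, 1 at bead day 7 and 0 at day 3 with either activation.

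The coating effect itself differed between DC day 4 and DC day 3 in 5 of 75 genes, day 4 minus day 3, with 4 positive and 1 negative (2.3 percent and 1.38 percent of all genes; median log2 0.32, all genes 0.029). They were Mrps14 (0.91 ± 0.24), Mrpl16 (0.82 ± 0.18), Mrps17 (0.80 ± 0.22), Mrpl18 (0.57 ± 0.15) and Mrpl9 (-0.71 ± 0.17), with adjusted p from 0.021 to 0.0479 (edgeR). Mrpl16 had 110, 76.5, 70.1 and 82.5 CPM in coated and 101, 87.6, 100 and 93.9 CPM in uncoated DC day 3 libraries with 120 in the title (M numbers 1, 2, 4 and 5 coated, 1, 3, 4 and 5 uncoated). The day 3 ranges overlapped, unlike those of day 4. Leaving out 1 sample at a time left 1 to 8 calls, of which the one on Mrpl16 was kept in all 18 fits. The count was 1 without coated M number 2, uncoated M number 1 or 5 of day 3, or coated M number 7 of day 4. It was 2 without coated M number 4 or uncoated M number 4 of day 3, or without coated M number 6 or uncoated M number 6 or 9 of day 4. It was 3 without coated M number 1 of day 3 or uncoated M number 8 or 10 of day 4, and 8 without uncoated M number 3 of day 3.

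Within DC day 3, libraries with 120 and with 30 in the title could be set side by side in 7 pairs of the same M number and coating. The summed level in the 120 library was 0.808 to 1.02 times that in the 30 library (median 0.964) and lower in 4 of the 7 pairs. The lowest ratio belonged to coated M number 4, whose 120 library had the fewest counts of all (382924). Over the 16 libraries, 1 gene rose and 3 fell, 120 over 30, of 74 tested (6.78 percent and 5.71 percent of all genes; median log2 -0.020, all genes 0.011).

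Mrpl38 fell by 0.32 ± 0.09 (adjusted p = 0.0184, edgeR). Its level was 97.1, 99.8 and 105 CPM in the uncoated 120 libraries and 130, 151 and 142 CPM in the uncoated 30 libraries of M numbers 1, 4 and 5, lower with 120 in each pair. The uncoated 120 library of M number 3, which has no partner, had 134 CPM. In the coated pairs (M numbers 1, 2, 4 and 5) it had 119, 131, 158 and 109 CPM with 120 and 146, 188, 161 and 130 CPM with 30, lower with 120 in each pair. Mrps27 (-0.34), Mrpl12 (-0.22) and, upward, Mrps36 (0.67, at 8.96 CPM) were the others. The coated libraries alone gave 0 calls and the uncoated ones alone 10, with 5 in each direction. Whether the 2 differ was not tested, and the shares of all genes in these fits are not given. Without M number 1, 2, 4 or 5 the count was 1, 2, 2 and 0. Myc was higher with 120 (log2 0.34 ± 0.07, adjusted p = 0.00146, edgeR), at 393 ± 65.5 CPM against 310 ± 42.7 CPM (SD, n = 8 each).

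**Figure D5:**
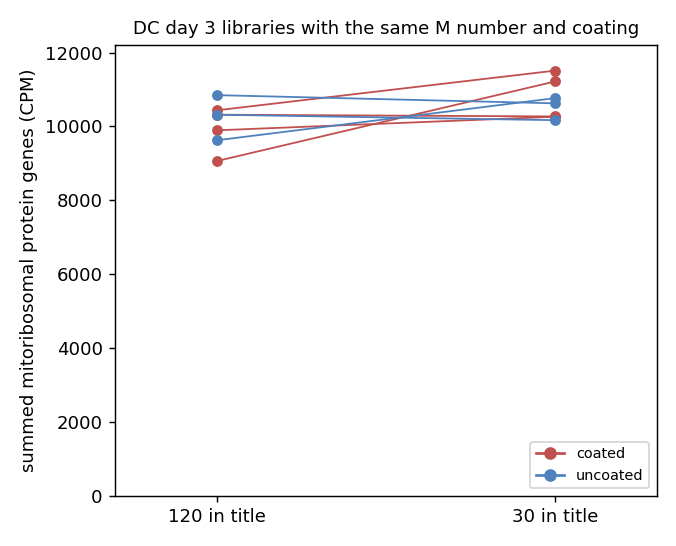
Summed level of the 77 genes in DC day 3 libraries with 120 (left) and 30 (right) in the title, lines joining libraries of the same M number and coating (red coated, blue uncoated). The ratio of 120 to 30 runs from 0.808 to 1.02.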

How the data were processed

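Bulk MARS-seq libraries of mouse OT-I CD8+ T cells (52 libraries in 9 groups) were analysed from the deposited table of raw counts per gene. Per the submitters' processing notes, the authors used bcl2fastq, cutadapt, STAR 2.4.2a, HTSeq and DESeq2 with build mm10; whether molecular identifiers were collapsed is not given in the sources used here. The same deposited table holds the authors' log2 fold changes and adjusted p-values, which were copied and named as theirs. A further 104 per-sample columns of normalized values were not used.

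Members and lists were chosen with earlier results of these data known. The 16 DC day 3 libraries were summed per M number and coating, giving 45 samples, except for 120 over 30, where single libraries entered with M number as a block. No 2 of the 1326 library pairs held identical counts (0 pairs). Differences were tested on counts with edgeR 4.0.16 in R 4.3.3 (quasi-likelihood F-test, robust, two-sided; filterByExpr with a minimum count of 10 and total of 15; TMM), adjusted by Benjamini-Hochberg across the whole set of tested genes, with a threshold of 0.05; errors of log2 changes are SE. DESeq2 1.42.0 was an alternative, with other scalings, no filter, a replicate block and each sample left out. The procedure was also run on simulated counts without any effect of M number or pairing, and the outcome is not given here. Levels are CPM with TMM factors over the 45 samples (over the 16 libraries for single DC day 3 libraries); group means of genes outside the family use the factors of their comparison. Depth ran from 382924 to 4641802 counts per library, with 2340 to 46167 counts on the 77 genes.

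Named were, per comparison, the called members with the largest change and a mean of at least 20 CPM (up to 8 in each direction, or 4 in comparisons of days or activators), up to 3 called against the majority, 15 followed members, the 3 highest and 3 lowest in level, and, from each other list, at most 2 called genes (those of smallest p), with Myc, Tfam and Polrmt whatever their p. Same-numbered samples were judged paired where the correlation of their deviations exceeded 0.1 in each of at least 3 pairs. This held for the coating at DC day 4 (0.131 to 0.343 over 5 pairs) and for bead day 7 over day 3 uncoated (0.138 to 0.269 over 3 pairs). The main fits of both comparisons did not use this pairing. In them M number entered only as the replicate block among the alternatives. RefSeq promoter windows were of GRCm38.p6; the NRF1 and YY1 letters were shortened after the shares with longer letters had been seen. The result of the aminoacyl-tRNA synthetase list for the coating at DC day 4 is not reported here.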

Additional observations from a re-analysis of the deposited data

Results flagged for a closer look

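Single samples stood apart from the rest of their group in 6 of 144 tests of a gene within a group (Dixon's criterion, which chance meets in about 1 in 20). In uncoated bead day 7 cells, Mrps5 had 80.5 CPM in M number 1, against 47.5 to 56.8 CPM in the other samples, and Mrps18b had 3.02 CPM in M number 3, against 0.598 to 1.07 CPM. In coated bead day 7 cells, Mrps7 had 194 CPM in M number 5, against 158 to 164 CPM. In coated DC day 4 cells, M number 8 was low in Mrps16 (146 CPM, against 198 to 217 CPM) and in Mrpl10 (82.7 CPM, against 108 to 115 CPM). In uncoated DC day 4 cells, Mrpl3 had 67.4 CPM in M number 7, against 53.5 to 56.8 CPM.

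The coating effect differed between DC day 4 and DC day 3 by the test of the difference itself in 5 genes. The log2 difference, day 4 minus day 3, was 0.91 for Mrps14, 0.82 for Mrpl16, 0.80 for Mrps17, 0.57 for Mrpl18 and -0.71 for Mrpl9. Day and set of M numbers cannot be told apart in it.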

How the results depend on the processing

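No call on a named gene turned into a call in the other direction in any alternative run. Of the single-gene values, 1900 kept their side of the threshold, 212 lost a call, 9 gained one and 0 reversed. Shares of all genes called are given for the main fits alone. Counts of called members that moved by over 1.5 times were these. For the coating at bead day 7 (1 with all samples), DESeq2's Wald test gave 5 and leaving out uncoated M numbers 3 and 4 gave 0. For bead day 7 over day 3 without the coating (29), no filter gave 18, the replicate block 8 and leaving out day 7 M numbers 3 and 4 gave 12. On the coating (5), no filter gave 1, DESeq2 9 and the replicate block 0. For 120 over 30 (4), no replicate block gave 0, each M number and coating as its own block 1, coated libraries alone 0 and uncoated libraries alone 10. For the coating effect of DCs minus beads (0), DESeq2 gave 2 and the replicate block 3.

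Leaving out 1 sample at a time gave 6 to 28 calls for the coating at DC day 4, 0 to 7 at bead day 7, 9 to 29 for bead day 7 over day 3 uncoated and 0 to 6 coated. It gave 9 to 19 for DCs over beads uncoated, 0 to 4 for 120 over 30, 1 to 8 for the coating effect of DC day 4 minus day 3, and 0 to 3 for that of DCs minus beads (3 without bead day 3 coated M number 3). The cause was not tested. The replicate block gave 28 calls for the coating at DC day 4, where the samples are paired, against 23 in the main fit without pairing. Leaving out samples with other cells' transcripts, samples with the smallest coating difference or unmatched day 0 samples was chosen after seeing the data. Genes of few counts, such as Mrpl50, could not be tested at this depth.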
